A study of Mus musculus with 80 samples.

Results

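UHRF1 KO and UHRF1 WT mouse embryonic stem cells (ESCs) were compared after 96 h in 2i by RRBS (reduced representation bisulfite sequencing), an assay of methylation in CpG-rich restriction fragments. The comparison rests on 4 of the 80 samples of the series, 2 of each genotype. It was made on 53216 autosomal tiles of 500 bp that held 20 or more methylation calls and 3 or more called positions in all 4 libraries, out of 563411 tiles with any call in them. Both lines carry the label background E14, a wild-type ESC line, and the KO is labelled UHRF1-/-. Per the methods of the study, the KO derives from cells with floxed Uhrf1 alleles in which a tamoxifen-inducible Cre had been activated before the medium was changed. Cells were kept in serum medium with LIF and were then moved to 2i, which is N2B27 medium with LIF, the MEK inhibitor PD0325901 and the GSK3 inhibitor CHIR99021. No RNA was measured in this pair of lines, so the loss of the transcript could not be checked here. Nothing in the sources used here says that the 2 samples of a group came from separate cultures, so p-values cannot be read as covering the spread between cultures. The p-values per tile rest on counts of calls and on a dispersion drawn mostly from other tiles.

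DNA methylation in mammals sits mostly on CpG sites and is copied after each round of replication. UHRF1 recognises hemimethylated CpGs on newly copied DNA and histone H3 dimethylated at lysine 9 (H3K9me2), and it brings the maintenance methyltransferase DNMT1 to those sites. The methyltransferases DNMT3A and DNMT3B add methyl groups to unmethylated DNA. Most CpG island promoters carry little methylation in ESCs, whereas promoters of a set of germ line genes and 1 parental copy of imprinted control regions are methylated.

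The 4 libraries of 96 h held 8399816 to 11974485 calls at 1425731 to 1612203 positions. Positions with 1 call made up 17.6% and 17.9% in the WT and 26.2% and 24.96% in the KO. The median tile had 87 and 68 calls in the WT and 72 and 63 in the KO. Mitochondrial positions, which are nearly free of methylation, were called methylated in 0.124% to 0.349% of calls. Calls of 1 read and copies made by PCR are not independent, so counts of calls overstate the number of molecules.

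The sequences below show where methylation was read in 5 promoters that the results turn on. They are the 250 bases before the transcription start in RefSeq (GRCm38.p6), 5′ to 3′ on the gene's own strand, with the position given on NCBIM37, the build of the deposited positions. Capitals mark CpGs with calls in all 4 libraries. Lep had the largest loss of any promoter placed, Sycp1 and Hormad1 are germ line genes with a methylated promoter, Clcn4 was called higher in the KO, and Klf2 is an unmethylated pluripotency gene.
Lep (chr6:29009971-29010220, plus strand): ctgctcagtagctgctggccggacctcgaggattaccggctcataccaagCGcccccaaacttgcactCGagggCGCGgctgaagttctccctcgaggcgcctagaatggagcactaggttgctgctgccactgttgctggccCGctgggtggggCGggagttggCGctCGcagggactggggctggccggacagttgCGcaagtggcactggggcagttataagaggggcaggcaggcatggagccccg
Sycp1 (chr3:102740024-102740273, minus strand): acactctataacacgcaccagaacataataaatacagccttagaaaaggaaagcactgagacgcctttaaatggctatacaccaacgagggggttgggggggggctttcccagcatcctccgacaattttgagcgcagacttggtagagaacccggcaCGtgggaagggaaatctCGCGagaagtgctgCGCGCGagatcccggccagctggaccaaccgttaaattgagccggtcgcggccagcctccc
Hormad1 (chr3:95363351-95363600, plus strand): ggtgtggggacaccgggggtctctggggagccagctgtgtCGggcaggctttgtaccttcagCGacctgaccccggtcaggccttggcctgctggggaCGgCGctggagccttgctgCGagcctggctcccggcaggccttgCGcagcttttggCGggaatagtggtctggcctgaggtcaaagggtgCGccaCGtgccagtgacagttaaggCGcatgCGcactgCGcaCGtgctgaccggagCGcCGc
Clcn4 (chr7:7252269-7252518, minus strand): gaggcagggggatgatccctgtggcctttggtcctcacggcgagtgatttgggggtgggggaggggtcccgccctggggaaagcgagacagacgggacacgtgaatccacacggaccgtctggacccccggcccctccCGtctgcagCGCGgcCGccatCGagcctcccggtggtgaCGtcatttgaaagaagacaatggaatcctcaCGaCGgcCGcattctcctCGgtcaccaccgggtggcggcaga
Klf2 (chr8:74842711-74842960, plus strand): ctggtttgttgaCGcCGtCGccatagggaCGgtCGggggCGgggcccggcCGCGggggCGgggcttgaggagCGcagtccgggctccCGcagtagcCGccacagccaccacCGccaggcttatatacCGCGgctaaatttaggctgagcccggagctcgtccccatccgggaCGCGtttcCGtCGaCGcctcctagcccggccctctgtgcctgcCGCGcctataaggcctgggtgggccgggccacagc

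Methylation after 96 h in 2i stood at about the same level in the 2 samples of each genotype and far lower in the KO. The mean over tiles was 25.5% in both WT samples, and 13.9% and 13.7% in the KO samples. The groups did not overlap, and the KO mean was lower by 11.7 percentage points (-11.7; WT 25.5% ± 0.049, KO 13.8% ± 0.134; SD, n = 2). The KO thus held 54.1% of the WT level. With 2 samples against 2 the exact two-sided permutation p was 0.333, the smallest this design can give. The same WT tiles lay a little above the E14 line at 96 h: in 51839 tiles that E14 also covered, the 2 E14 samples stood at 22.2% and 22.3%, the WT at 24.9% and 24.8%, and the KO at 13.5% and 13.3%.

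Highly methylated tiles were almost gone from the KO. Tiles at 80% or more made up 5.94% and 6.66% of tiles in the WT, and 0.0770% and 0.0583% in the KO. Tiles at 50% or more made up 28.995% and 28.9% in the WT, against 4.79% and 4.62% in the KO. At the level of single positions, 85429 autosomal positions had 10 or more calls in all 4 libraries. Of these, 4.06% and 4.32% were methylated in 80% or more of calls in the WT, against 0.0948% and 0.101% in the KO. The share of positions between 20% and 80% was nearly alike, 13.3% and 13.2% in the WT and 13.6% and 13.4% in the KO. These deep positions were mostly unmethylated, with a mean of 11.5% and 11.4% in the WT and 6.27% and 6.24% in the KO.

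The test per tile called 13750 of 53216 tiles lower in the KO (25.8%) and 32 higher (0.0601%). The test was a quasi-binomial logistic model with moderated dispersion, and calls needed 20 points or more between the group means besides a p under 0.05 after Benjamini-Hochberg adjustment. Both KO samples lay below both WT samples in 25523 tiles (48.0%), and the reverse held in 2272 tiles (4.27%). The former also held in 13720 of the 13750 tiles called lower, which the call from the same values largely fixed in advance. The called tiles fell from a mean of 68.2% and 68.4% in the WT to 33.0% and 32.5% in the KO, with a median difference of -34.6 points. In 809 of them the loss was 50 points or more. These counts depend on the test. With 1 dispersion shared by all tiles, 13975 tiles were called lower and 34 higher. Fisher's exact test on pooled calls, which ignores the spread between libraries, called 15389 lower and 40 higher. A fit with each tile's own dispersion, which only the 4 libraries can estimate, called 0 tiles after adjustment. So did limma on log2 ratios, which shares variance over tiles but does not weight tiles by their calls. At an unadjusted p under 0.05 the own-dispersion fit had 6172 tiles and limma 17078. The smallest adjusted p was 0.404 and 0.0731. Leaving out 1 library moved the number called lower to 2964 without WT replicate 1, 4344 without WT replicate 2, 8641 without KO replicate 1 and 9177 without KO replicate 2, and the number called higher to 5, 7, 22 and 30. The mean difference over tiles stayed between -11.8 and -11.6 points in these 4 fits.

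The coverage limits of the comparison selected tiles with low methylation. The 16495 tiles with 10 to 19 calls in their shallowest library stood at 48.2% and 48.3% in the WT and 25.6% and 25.4% in the KO. The 12416 tiles just inside the limit, with 20 to 29 calls, stood at 46.1% and 46.2% in the WT and 24.8% and 24.5% in the KO. The mean difference over tiles was accordingly -4.35 points with a limit of 50 calls and -5.22 over single positions with 10 or more calls.

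E14 cells in serum, whose libraries took no part in the contrast, gave the level of each tile in a wild-type line before 2i. Differences between the genotypes followed that level. In the 30306 tiles under 20% in E14 serum the WT stood at 1.93% and 1.71% and the KO at 1.203% in both samples, a median difference of -0.11 points. In the 10270 tiles at 80% or more, the WT stood at 71.3% and 71.6%, the KO at 38.4% and 37.8%, and the median difference was -33.7 points. The share of tiles called lower was 0.234% in the lowest class, 14.7% at 20 to 40%, 39.6% at 40 to 60%, 62.4% at 60 to 80% and 79.1% in the highest class, against 25.8% of all tiles. As a share of the WT level, the KO kept 54.8%, 54.0%, 52.9% and 53.3% in the 4 classes from 20% upward. From the lowest to the highest of these 4 classes the difference of the class means grew from -11.0 to -33.4 points, while the ratio of KO to WT hardly moved.

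**Figure D1:**
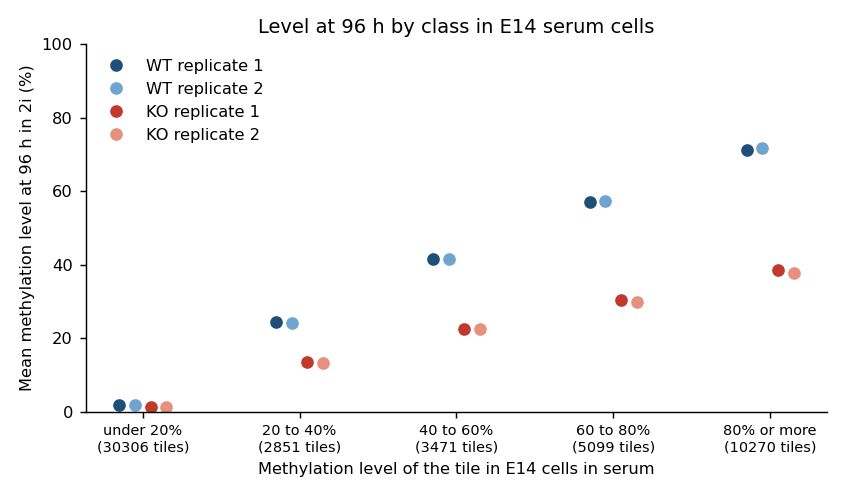
Mean methylation level at 96 h in 2i (y axis, %) of tiles grouped by their level in E14 cells in serum (x axis), with 1 point per library and the number of tiles under each class. In the highest class the WT points lie at 71.3% and 71.6% and the KO points at 38.4% and 37.8%, and in the lowest class all 4 lie under 2%.

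The 18840 tiles at 40% or more in E14 serum showed how far the whole distribution had shifted. Their median level was 64.7% in both WT samples, and 32.7% and 32.2% in the KO. The quartiles were 50.8% and 75% in WT replicate 1, and 23.8% and 42.3% in KO replicate 1. The KO curves had a single peak, with 3.08% and 3.19% of tiles at 60% or more and 16.2% and 17.6% under 20%. Both WT samples were at 60% or more in 9486 of these tiles (50.4%), and both KO samples in 124 (0.658%).

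**Figure D2:**
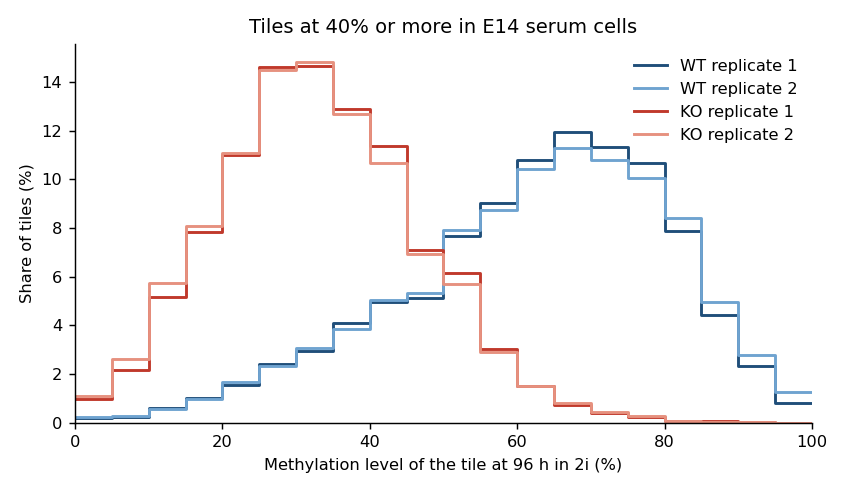
Share of tiles (y axis, %) by methylation level at 96 h in 2i (x axis, bins of 5 percentage points) for the 18840 tiles at 40% or more in E14 serum, with 1 line per library. The 2 KO lines lie on each other around a median of 32.7% and 32.2%, and the 2 WT lines around 64.7%.

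The ratio of KO to WT was then described across features of the tiles. CpG density was taken as the number of called positions per tile in the same 4 libraries, a count that also entered the choice of tiles. Among all tiles, those with 3 to 9 positions had the largest median difference (-24.3 points), and those with 40 or more the smallest (-0.10), where the WT itself stood at 0.688%. Among tiles at 40% or more in E14 serum, the 15306 tiles with 3 to 9 positions stood at 62.5% in the WT and 33.2% in the KO. The 181 tiles with 20 to 39 positions stood at 55.1% and 29.1%. The KO thus kept 53.2% and 52.8% of the WT level, with median differences of -30.0 and -26.9 points. In E14 serum the sparse tiles had stood at 78.1% and the dense ones at 61.9%. Among tiles at 80% or more in E14 serum the medians were -33.8 points (8897 sparse tiles) and -33.3 (31 dense tiles). Of the denser tiles 71.8% were called lower, and of the sparse ones 66.1%, with 129 to 185 calls in the median dense tile and 36 to 47 in the median sparse tile. The 5 methylated tiles with 40 or more positions stood at 53.4% and 54.8% in the WT and 35.6% and 37.4% in the KO.

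UHRF1 binds H3K9me2, so tiles were also grouped by the enrichment of this mark in 10-kb windows. The mark was measured in E14 cells in 2i by ChIP followed by bisulfite sequencing. The paper describes these cells as long-term 2i, so the mark was not measured at 96 h. In the 23582 windows with the highest enrichment, of 235815, 905 methylated tiles stood at 69.5% and 69.4% in the WT and 37.9% and 36.8% in the KO. In the other windows, 17906 tiles stood at 61.6% and 61.8% in the WT and 33.1% and 32.6% in the KO. The median difference was -34.1 against -29.5 points, and the share called lower 77.3% against 66.8%. The gap between the medians was -4.58 points, and -1.73 points with the mark measured in serum. The KO kept 53.8% of the WT level in the marked windows and 53.3% in the others, and E14 serum levels were 81.5% and 76.7%.

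Methylated tiles lost a similar number of points on each autosome. Over the 19 autosomes the median difference of methylated tiles ran from -30.6 points on chromosome 13 to -29.1 on chromosome 11, and the KO kept 52.0% to 54.7% of the WT level. On the X chromosome, 859 tiles had a mean of 18.2% and 18.1% in the WT and 10.5% and 10.3% in the KO, and 108 (12.6%) were called lower in a fit of X tiles alone, against 25.8% of autosomal tiles, and the difference from the autosomes was not tested.

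Tiles that E14 cells themselves retained in 2i also lost methylation in the KO. The 1190 tiles that kept 80% or more of their E14 serum level at 168 h stood at 81.1% and 81.6% in the WT and 47.6% and 46.5% in the KO at 96 h. The KO kept 57.9% of the WT level there and 52.9% in the other 16617 methylated tiles.

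Promoters could be described for 5456 genes. RefSeq promoter windows were located on the deposited positions by the spacing of their CpGs, and 6033 windows fell in a tile of the comparison. These are CpG-dense windows, so 97.2% of them were under 5% in the WT and their median difference was -0.11 points. Only 22 windows were at 40% or more in E14 serum. In the KO 16 windows, at 13 different tiles, were called lower and 2 higher, which is 0.265% for the former against 25.8% of all tiles. Of the 22 windows at 40% or more in E14 serum 9 were called lower, against 67.3% of all tiles at that level. The 16 windows became 5 without WT replicate 1 and 10 without WT replicate 2.

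Lep, which encodes the hormone leptin, had the largest promoter loss. Its tile stood at 68.1% and 69.9% in the WT and 22.5% and 29.4% in the KO, with 51 to 73 calls. The difference was -43.0 points (quasi-binomial adjusted p 3.10e-05). All 9 upstream CpGs with calls in the 4 libraries were lower in the KO mean, with WT means of 50.0% to 91.7% and KO means of 0% to 35.7%. The best covered CpG, 52 bases before the start, stood at 80.6% and 78.3% in the WT and 36.4% and 35.0% in the KO, with 20 to 33 calls. The other 8 had 2 to 6 calls in each library.

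Rpl39l, a paralogue of a ribosomal protein gene that is used in the testis, stood at 66.5% and 69.6% in the WT and 38.5% and 38.7% in the KO (-29.5 points, quasi-binomial adjusted p 5.98e-05). The tile of Dnajc5g and Slc30a3, whose promoter windows overlap on opposite strands, stood at 54.1% and 49.2% against 35.9% and 18.9% (-24.2 points, adjusted p 0.0251). Slc30a3 encodes a zinc transporter of synaptic vesicles. Tmem267 and 3110070M22Rik share a tile with 965 to 1879 calls. It stood at 54.5% and 48.4% in the WT and 27.0% and 33.0% in the KO (quasi-binomial adjusted p 3.25e-11), but at 1.94% in E14 serum. Naa11, which encodes an N-terminal acetyltransferase subunit, shares a tile with 4930467D21Rik that fell by 21.9 points, and Fam166c fell by 24.7 points. Tiles of the predicted or non-coding genes Gm36794, Aknaos, Gm34222 and Gm46055 were also called lower, with differences of -39.2 to -22.4 points.

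Germ line genes, whose promoters DNA methylation keeps silent in somatic cells, were the methylated list among the promoters placed. Tiles were measured for 10 of the 39 genes listed. All 10 were lower in the KO mean, 9 without overlap between the groups against 48.0% of all tiles. Of the 10, 2 were called lower, against 25.8% of all tiles and 0.265% of promoter windows, with no test against these shares. The median difference was -14.7 points, against -1.24 over all tiles, most of which carry little methylation. At 40% or more in E14 serum the median was -29.7 points over all tiles and -21.1 over the 18 promoter tiles, of which 8 were called lower. These 18 include the germ line tiles of Sycp1, Asz1, Tex101, Hormad1 and Slc25a31, with differences of -26.1 to -10.7 points. Those of Ddx4, Smc1b, Sohlh2, Dmrtb1 and Mael stood at only 18.1% to 24.1% in E14 serum. Their differences were -15.2 to -4.35 points. The list was chosen with earlier results of these data known, so it gives no independent evidence of its direction.

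Sycp1, a component of the synaptonemal complex that joins chromosomes in meiosis, stood at 75.7% and 72.6% in the WT and 44.5% and 51.6% in the KO. The difference was -26.1 points (quasi-binomial adjusted p 3.75e-05; 113 to 218 calls). All 6 upstream CpGs with calls were lower in the KO mean. Tex101, a surface protein of germ cells needed for male fertility, stood at 82.7% and 71.1% in the WT and 52.8% and 55.8% in the KO (-22.6 points, adjusted p 0.0123). Of its 8 upstream CpGs with calls, 5 were lower in the KO mean, on 1 to 7 calls per library.

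Hormad1, a protein of meiotic chromosome axes, passed the adjusted p but not the 20 points. It stood at 57.4% and 51.9% in the WT and 34.2% and 43.6% in the KO (-15.7 points, quasi-binomial adjusted p 0.0271). Of its 15 upstream CpGs with calls, 12 were lower in the KO mean, by as little as -0.24 points, on 3 to 28 calls per library. Libraries of the groups overlapped or were equal at several of them. The CpGs from 96 bases before the start onward lie beyond the end of the tile. Dmrtb1, a transcription factor of spermatogonia, stood at 29.6% and 28.6% against 7.92% and 20% (adjusted p 0.000690), and Mael, which acts in the repression of transposons by piRNAs, at 34.0% and 29.8% against 23.5% and 21.7% (adjusted p 0.0249). Asz1, also of the piRNA pathway, had a difference of -25.1 points but KO samples far apart, at 50.0% and 25.9%, and it was not called (adjusted p 0.0782).

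The remaining germ line promoters did not pass the test. Smc1b, a meiotic cohesin subunit, stood at 33.8% and 37.1% in the WT and 28.2% and 14.5% in the KO. Slc25a31, an ADP/ATP carrier of the testis, stood at 50.2% and 50.8% in the WT and 32.7% and 46.9% in the KO, and 4 of its 6 upstream CpGs were lower in the KO mean, on 2 to 9 calls per library and by as little as -0.28 points. Sohlh2, a transcription factor of early germ cells, was the 1 germ line promoter whose groups overlapped, at 28.3% and 42.9% in the WT and 20% and 29.2% in the KO. Ddx4, the germ cell RNA helicase also called Vasa, had the smallest difference, at 15.0% and 15.3% against 12.7% and 8.93%. Over the 10 genes the KO kept 47.9% (Dmrtb1) to 78.8% (Slc25a31) of the WT level, with a median of 69.9%. The ratio of the mean levels was 66.96% for these genes. By the same ratio of means, over all 18 promoter tiles at 40% or more in E14 serum the KO kept 59.97%, and over all 18840 tiles at that level 53.3%. The germ line genes include tiles under that level in E14 serum, so these sets are not matched.

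The letters CACGTG, the E-box bound by several basic helix-loop-helix factors, occurred on either strand in the 250 bases before the start of 5 of the 10 germ line genes (Ddx4, Hormad1, Mael, Slc25a31 and Sycp1). They occurred in 9.07% of 5249 promoters in tested tiles and in 6.04% of 32536 RefSeq promoters. The letters TCCCGC, part of the E2F site, occurred in 4 of the 10 in 42.0% of promoters in tested tiles and in 17.0% of all RefSeq promoters. In Sycp1 the CpG inside CACGTG, 92 bases before the start, had the lowest group mean of the 6 upstream CpGs in both genotypes, at 52.0% and 62.5% in the WT and 19.4% and 25% in the KO, with 16 to 31 calls. In Hormad1 both such CpGs were at 0% in all 4 libraries, with 3 to 8 calls each.

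**Figure D3:**
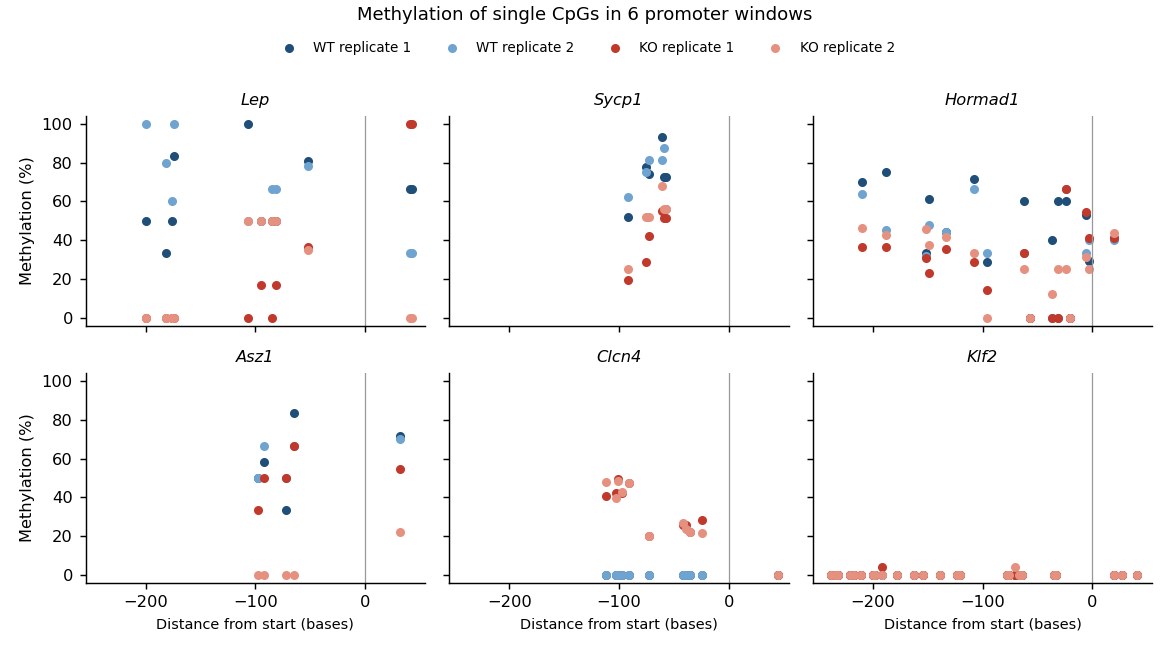
Methylation of single CpGs (y axis, %) by distance from the transcription start (x axis, bases, the grey line marks the start) in 6 promoter windows, with 1 point per library for each CpG with calls in all 4. Upstream, the KO mean lies below the WT mean at all CpGs shown of Lep, Sycp1 and Asz1 and at 12 of 15 of Hormad1. Points of the groups overlap or meet at several CpGs of Hormad1 and at some of Lep and Asz1. Upstream in Asz1, KO replicate 2 rests on 2 calls at each CpG, all at 0%. KO points lie above the WT points at 0% upstream in Clcn4, and at or near 0% with them in Klf2. Points with the same value cover each other.

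Imprinted genes had 7 tiles from 6 of the 32 genes listed, and 1 of the 7 was called lower, against 25.8% of all tiles and 0.265% of promoter windows. Commd1 has a pair of promoter windows. The one at chromosome 11, 22872817 to 22873116, stood at 40.4% and 38.5% in the WT and 14.7% and 19.6% in the KO (-22.3 points, quasi-binomial adjusted p 7.11e-05), and the other, at 22882235 to 22882534, at 1.205% and 0% against 0% in both KO samples. Plagl1, a zinc finger protein expressed from the paternal copy, stood at 40.1% and 47.4% in the WT and 28.1% and 42.3% in the KO. It passed the adjusted p (0.0442) but not the 20 points, its groups overlapped, and its tile stood at 88.2% in E14 serum. The windows of Mcts2, Igf2r, Grb10 and Gnas were under 6% in all 4 libraries. In E14 serum the tile of Mcts2 stood at 31.4%, and the others at 1.79%, 0.616% and 0.432%. The other imprinted genes listed were not analysed here.

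The promoters measured for pluripotency genes (4 of 22 listed) and for the methylation machinery (5 of 12 listed) carried little methylation in both genotypes. The tiles of Klf2, Klf4, Tfcp2l1 and Fgf4 were under 1% in all 4 libraries, and 0 of 4 were called lower or higher (smallest quasi-binomial adjusted p 0.634), against 0.265% of promoter windows called lower. All 22 upstream CpGs of Klf2 with calls were at 0% in the WT mean and at 2.17% or less in the KO mean. Among the machinery, 5 genes with 6 tiles were measured, and 0 were called (smallest quasi-binomial adjusted p 0.385). Dnmt1, both windows of Dnmt3a, and Tet3 stood under 3% in every library, and Uhrf2, a paralogue of Uhrf1, between 1.43% and 3.75%. The promoter of Uhrf1 itself stood at 0% in both WT samples and at 0% and 0.901% in the KO.

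**Figure D4:**
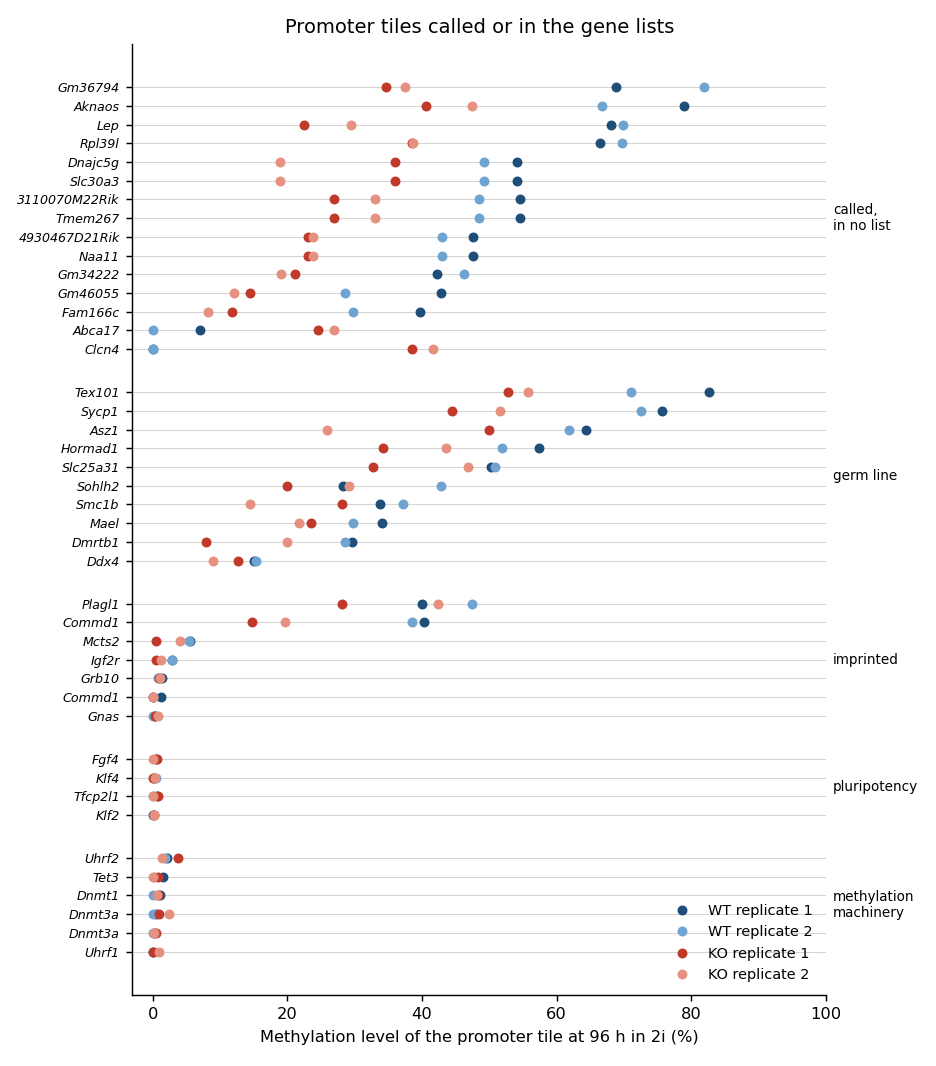
Methylation level at 96 h in 2i (x axis, %) of promoter tiles that were called or that belong to the gene lists (y axis, gene symbols, grouped by list), with 1 point per library. Germ line promoters spread from 7.92% to 82.7%, pluripotency and machinery promoters lie under 4%, and Clcn4 and Abca17 are the only 2 rows in which both KO points lie to the right of both WT points beyond the 20 points of the call.

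Tiles of 1 chromosome were left out of the rankings of named tiles below. Among the others, the 10 tiles with the largest loss and no overlap of the groups had WT means of 76.4% to 94.3%. Their KO means were 0% to 20.3%, with 20 to 73 calls per library. Having been chosen for their size, they are given as a description. The first was on chromosome 13 (8717501 to 8718000), at 100% and 85.0% in the WT and 11.8% and 9.52% in the KO (-81.9 points, quasi-binomial adjusted p 3.92e-06, 20 to 34 calls). The next was on chromosome 4 (40754001 to 40754500), at 84.1% and 87.5% in the WT and 6.98% and 3.57% in the KO (-80.5 points). A tile on chromosome 2 (103936001 to 103936500) stood at 83.3% and 71.8% in the WT and 0% in both KO samples. In serum it already stood at 42.9% and 21.4% in the KO (7 and 14 calls) and at 100% in the WT, and E14 serum held 12.1%. A tile on chromosome 7 (24229001 to 24229500) stood at 91.8% and 92.3% in the WT and 8.11% and 32.6% in the KO, yet at 0% in both E14 serum samples, which fell short of the limits on calls or positions. In serum the 1 WT library stood there at 0% of 38 calls and the KO at 77.8% of 9 and 25% of 16. The WT stood there at 94.5% and 100% after 24 h, 98.8% and 94.1% after 48 h, and 86.9% and 89.3% after 72 h. None of these 10 tiles lay at a promoter window that was placed. With limma or the tile's own dispersion all 10 lost the call, and the tile on chromosome 11 at 73548501 also lost it without WT replicate 1 (adjusted p 0.0516).

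Some tiles stayed methylated in the KO. Among tiles with 50 or more calls in each library and 80% or more in E14 serum, the 5 highest in the KO had KO means of 70.2% to 76.3% and WT means of 88.7% to 96.3%. The highest, on chromosome 2 (150023501 to 150024000), stood at 96.4% and 92.3% in the WT and 69.2% and 83.3% in the KO, with 60 to 130 calls. The tile on chromosome 1 (179688501 to 179689000) stood at 91.2% and 94.3% in the WT and 71.4% and 72.6% in the KO. The tile on chromosome 14 (107227001 to 107227500) stood at 86.8% and 90.7% in the WT and at 90.5% and 50.0% in the KO, so its groups overlapped. The KO mean was below the WT mean in the 5 tiles (-23.7 to -18.1 points). Those on chromosomes 1, 4 and 9 were themselves called lower in the KO.

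Few tiles were higher in the KO. The 32 tiles called higher (0.0601%) had means of 17.3% and 16.5% in the WT and 44.9% and 43.1% in the KO, and the 28 with an E14 serum level ran from 1.15% to 84.4% there, with a median of 43.6%. Promoter windows placed at these tiles were those of Clcn4 and Abca17.

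Clcn4, which encodes a chloride-proton exchanger, had the largest gain in pooled calls among the ranked tiles called higher. With the mean of its positions' percents the gain was 29.8 points, the smallest of the 5 leading gains. Its tile on chromosome 7 (7252001 to 7252500) stood at 0% in both WT samples and 38.5% and 41.6% in the KO (40.02 points, quasi-binomial adjusted p 1.54e-20). All 10 upstream CpGs with calls were at 0% in the WT and at 20.1% to 48.9% in the KO. The tile held 539 and 410 calls in the WT and 2077 and 1703 in the KO, although the KO libraries as a whole were not deeper. The difference was there at every time: the WT stood at 1.11% in serum and under 1% later, and the KO at 62.0% and 56.0% in serum, 56.2% and 60.4% at 24 h, and 38.3% and 39.97% at 168 h. E14 cells held 35.7% and 38.2% in serum and 26.5% and 23.1% after 96 h. Whether the 2 lines differ in sequence or copy number at this tile was not tested.

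Abca17, a member of the ABCA lipid transporter family, stood at 6.98% and 0% in the WT and 24.5% and 26.9% in the KO (22.2 points, quasi-binomial adjusted p 0.00773, 35 to 52 calls). The other leading gains were on chromosome 2 (80673501 to 80674000), chromosome 8 (18432501 to 18433000 and 18034001 to 18034500) and chromosome 7 (83128501 to 83129000). That last tile stood at 2.50% and 8.77% in the WT and 37.3% and 43.5% in the KO. In serum the WT stood there at 81.6% and the KO at 80% and 58.5%, of 5 and 41 calls. At 72 h the WT stood there at 40.7% and 55.4% and the KO lower, at 28.6% and 30.6%. The tile at 18034001 was about level at 72 h, at 39.6% and 38.5% in the WT and 40.2% and 39.4% in the KO. The KO mean was the higher at 72 h in those at 80673501 and 18432501. Not all 4 tiles thus had the gain of 96 h at 72 h already. All 4 of these lost the call without WT replicate 1 (quasi-binomial adjusted p 0.0587 to 0.286), and the 3 on chromosomes 2 and 8 also did so without WT replicate 2 (0.0528 to 0.205) and without 1 of the KO replicates (0.169 to 0.186). The tile of Clcn4 kept its call without each library in turn.

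The other times of the same 2 lines showed whether the tiles of 96 h differed before and after. They share no libraries with 96 h. The 96 h libraries chose the tiles, so their own values at 96 h are a description. In serum, where the WT has 1 usable library, 4091 of the 13750 lower tiles were covered. The KO lay below the WT in 85.5% of them, against 60.2% of all tiles, by a median of -6.56 points. The test called 1 lower, against 0.00319% of all tiles tested, but its spread came from the 2 KO libraries and the dispersion shared over tiles, so its calls cannot be set against those of later times. After 24 h the median was -19.2 points, and 1579 of 3608 were called lower (43.8%, against 8.90% of all tiles). At 48 h it was -31.2 points, with 3037 of 3880 called lower (78.3%, against 14.7%). At 72 h it was -35.2 points, with 11963 of 12528 called lower (95.5%, against 37.9%). At 168 h the median was -3.49 points, and 89 of 2571 were called lower (3.46%, against 0.331%) and 14 higher (against 0.387%). That median was -6.82 points when the tiles were called without WT replicate 1 of 96 h and -6.19 without WT replicate 2. With tiles called at a minimum of 10 points it was -0.75, and at 30 points -7.29. The sets of tiles covered differ between times, with 28133 tiles tested at 168 h and 57617 at 72 h. Tiles called lower at 96 h had WT means of 68.2% and 68.4% at that time, while most of all tiles carry little methylation. The shares set beside those of all tiles are thus not matched for level.

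The 1197 lower tiles covered in all 23 usable UHRF1 libraries gave the course on 1 set. In serum the WT held 89.4% (1 library). In 2i it held 85.8% ± 0.0896 after 24 h, 82.2% ± 0.211 after 48 h, 74.5% ± 0.0795 after 72 h, 65.4% ± 0.0926 after 96 h, then 46.1% ± 0.980 after 168 h (SD, n = 2). The KO held 80.4% ± 0.312 in serum and 65.1% ± 0.475 after 24 h of 2i, 51.0% ± 0.677 after 48 h, 41.3% ± 0.739 after 72 h, 33.4% ± 0.736 after 96 h, then 42.2% ± 0.0416 after 168 h. Of these times the KO was lowest at 96 h and higher at 168 h, while the WT was lower at each later time. All 22700 tiles covered in these libraries, which 96 h did not choose, also had their lowest KO level at 96 h. Their mean in the KO was 3.99% ± 0.0477 after 72 h, 3.30% ± 0.0205 after 96 h, then 4.54% ± 0.0520 after 168 h. In the WT it was 5.70% ± 0.132 after 96 h and 3.72% ± 0.0854 after 168 h, so the KO was the higher of the 2 at 168 h.

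**Figure D5:**
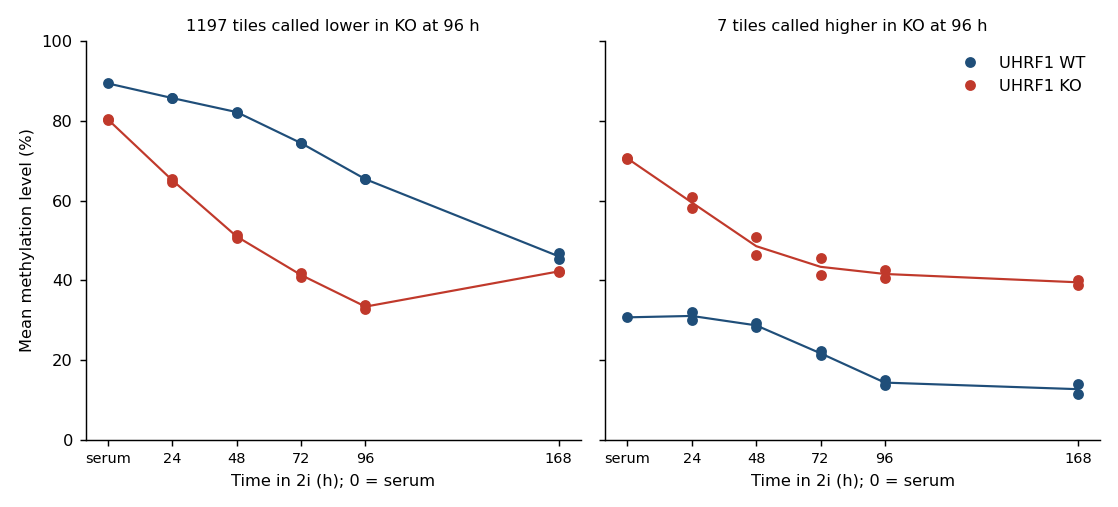
Mean methylation level (y axis, %) by time in 2i (x axis, hours, serum at the left end) of tiles called lower (left, 1197 tiles) and higher (right, 7 tiles) in the KO at 96 h and covered in all 23 libraries, with 1 point per library and lines through the group means. On the left the KO reaches 33.4% at 96 h and 42.2% at 168 h, next to the WT at 46.1%. On the right the KO lies above the WT at every time, from 70.6% against 30.7% in serum onward.

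The tiles called higher at 96 h were also followed at the other times, where they were covered in part. In serum 14 of the 32 were covered, and the KO lay above the WT in 13 of them, with a median difference of 29.7 points, and 1 was called higher in the test with 1 WT library (0.00319% of all tiles tested). At 24 h, 13 of 14 were above the WT and 6 were called higher (0.0707% of all tiles). At 48 h it was 13 of 19 with 4 called (0.0297%), and at 72 h 25 of 32 with 9 called (0.0399%). At 168 h, 14 were covered and all were above the WT, where the KO lay below the WT in only 30.3% of all tiles, and 7 were called higher (0.387% of all tiles). In the 7 such tiles covered in all libraries the KO stood at 70.6% ± 0.117 in serum (SD, n = 2) and the WT at 30.7% (1 library).

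Whether the difference at 96 h itself differed from that at another time was tested as an interaction of genotype and time, on the logit scale, with a minimum of 20 points between the 2 differences. The largest change was toward 168 h. Of 28035 tiles covered at both times, 1062 (3.79%) had a more negative difference at 96 h and 1 (0.00357%) a less negative one. The mean difference over these tiles was -3.92 points at 96 h and 0.82 at 168 h. Leaving out 1 library moved the 1062 to between 317 (without KO 168 h replicate 2) and 820, with 341 without WT 168 h replicate 1, 659 without WT 168 h replicate 2 and 702 without WT 96 h replicate 1. A limit of 10 calls per tile gave 2952 and one of 50 calls gave 107.

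Between 96 h and the earlier times few tiles passed this test, which does not show that the differences were alike. Against 24 h, 4 of 29547 tiles were more negative at 96 h and 4 less negative (0.0135% each). Against 48 h, 0 of 30103 were more negative and 3 less negative (0.00997%), and against 72 h, 0 of 50253 in either direction. At an unadjusted p under 0.05 in the same quasi-binomial model, 229 of 29547 tiles were more negative at 96 h than at 24 h. It was 73 of 30103 against 48 h and 139 of 50253 against 72 h, and the less negative tiles at that limit are not given. The mean difference over the tiles shared with 24 h was -5.12 points at 96 h and -4.57 at 24 h. With 48 h it was -5.39 at 96 h and -6.50 at 48 h, and with 72 h it was -11.1 at 96 h and -13.1 at 72 h.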

How the data were processed

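The authors deposited RRBS calls as counts of methylated and of unmethylated reads at each cytosine, in Bismark coverage format. The study names NCBIM37 as the build of its RRBS reads. The submitters' processing notes list Trim Galore 0.3.5, Bismark 0.12.3 and Bowtie2. These counts were summed over tiles of 500 bp (20 or more calls and 3 or more positions in every library of a comparison). Tiles were tested with a quasi-binomial logistic model in R 4.3.3. Dispersions were moderated by the method of limma 3.58.1, with the prior estimated on tiles between 5% and 95%, and floored at 1. An F test was followed by Benjamini-Hochberg adjustment over all tiles. The model was tested on simulated data, where most of the changes made in a small set of tiles were not called. With so few changed tiles the adjusted limit was stricter there than in the real comparison. In the latter, 1990 of the 15740 tiles lower by 20 points or more in the KO were not called. A tile that was not called is thus not shown to be unchanged. Tile levels are pooled calls, and group values are means of 2 libraries. UHRF1 WT serum replicate 2 held too few positions and was left out. H3K9me2 classes come from ChIP-BS counts that the authors deposited, as bound over input calls in windows of 10 kb. Positions with more than 20 calls and windows with fewer than 20 input calls were left out.

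Promoter windows of RefSeq (GRCm38.p6; 250 bases before and 50 after the start) were placed by matching the spacing of their CpGs exactly to the deposited positions with 10 or more calls in all on the same chromosome. A window needed 6 or more CpGs seen and an expected number of chance placements of 0.001 or less. Of 17846 windows searched 6315 were placed, and 2 that broke the gene order were dropped. A window took the tile at its midpoint. No genome of NCBIM37 was used, so genes at other tiles are not given. Named tiles are the 10 called tiles with the largest loss and the 5 with the largest gain without overlap, and the 5 highest in the KO. Tiles on 1 chromosome were counted, were not named and were left out of these rankings. The comparison, the members and the gene lists were chosen with earlier results of these data known. The alternatives tried were other limits on calls and positions, other tests and dispersions, other minimum differences, a replicate block and leaving out each library.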

Additional observations from a re-analysis of the deposited data

Results flagged for a closer look

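Results were listed here where the difference between KO and WT itself differed between 96 h and another time by the interaction test. More tiles had a more negative difference at 96 h than at 168 h (1062) than at 24 h (4). A less negative difference at 96 h was found in 4 tiles against 24 h, in 3 against 48 h and in 1 against 168 h. The test is on the logit scale, and the minimum of 20 points is on the percent scale.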

How the results depend on the processing

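The mean difference over tiles was negative in every alternative run, from -14.3 points with 10 calls per tile to -4.35 with 50 calls, where 28063 tiles remain. The number of tiles called lower moved to 2858 with 50 calls, 8210 with 5 positions, 1166 in 1 fit of all UHRF1 samples (22700 tiles, of which 1197 were called by the 4 samples and 1166 by both), and 0 with limma or own dispersions. Without 1 library it was 2964 to 9177. The number called higher moved to 10 with 50 calls or with 30 points, 7 in the fit of all samples, 124 with no minimum difference, 70 with 10 points and 0 with limma or own dispersions, and was 5 to 30 without 1 library. Promoter windows called lower, a count added after the data were seen, moved to 86 with no minimum difference, 33 with 10 points, 2 with 30 points and 0 with limma or own dispersions, and to 5 to 16 without 1 library. The median difference of tiles at 80% or more moved to -30.7 with classes from UHRF1 WT serum, and lay between -34.3 and -33.5 without 1 library. Dense tiles, which stood lower in E14 serum (61.9% against 78.1%), lost fewer points than sparse ones. The gap between the medians was 3.11 points. That gap was 2.34 with 50 calls and 1.95 to 3.28 without 1 library. The excess of H3K9me2 windows (-4.58 points) was -3.70 with 50 calls, -3.77 with 5 positions, -1.73 with classes from serum and -3.80 with a wider class of windows, and -5.31 to -4.04 without 1 library. The median at 168 h of the tiles of 96 h (-3.49 points) was -4.49 with 10 calls, -0.75 with tiles called at 10 points and -7.29 at 30 points, and -6.82 to -4.18 without 1 library of 96 h. The interaction count against 168 h was 2952 with 10 calls and 107 with 50 calls, and 317 to 820 without 1 library. Fewer tiles are tested with 50 calls, 5 positions or all samples, and the remaining causes were not tested. Replicate numbers did not pair the samples (correlation of the replicate differences of WT and KO -0.0027 over the 25046 tiles with a mean between 5% and 95%), and a replicate block gave 13712 tiles lower and 35 higher, 16 promoter windows lower and the same mean difference of -11.7 points. The 10 named losses and 5 named gains lost the call under limma and own dispersions, and in 41 repeats in all, with no change of sign. With the mean of position percents the adjusted p stayed that of the pooled calls, so that alternative tests the 20 points alone. Where a library was left out, the lone library of its group was assumed to vary like the other group.

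A single library of KO or WT rests on a median of 63 to 87 calls per tile, and replicates of 1 genotype differed over the same 25046 tiles with an SD of 11.3 (WT) and 12.6 (KO) points.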
